A study of Mus musculus with 10 samples.

Results

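Mouse embryonic fibroblasts infected with 4 retroviruses were compared after 3 days in an induction medium named iCD3 (D3) and before any time in it (D0). The comparison used 4 of the 10 libraries of the series, chosen by their labels: replicates 1 and 2 of D3 and replicates 1 and 2 of D0. Both groups came from E13.5 embryos of CBA/CaJ × C57BL/6J males with an Oct4-GFP transgenic allele and 129S4/SvJaeJ females. Cells of both groups, at passage 2, had received Jdp2, Sall4, Esrrb and Glis1 by retrovirus for 48 hours, so D0 is an infected culture and not an untouched fibroblast. The 4 genes encode a repressor of the AP-1 family (Jdp2), a zinc finger factor of early embryos (Sall4), an orphan nuclear receptor of pluripotent cells (Esrrb) and a Kruppel-like zinc finger factor (Glis1). Uninfected cells and iCD3 medium without the factors were not analysed here, so effects of the medium, of further time and of the factors cannot be told apart. The remaining libraries, from days 1, 5 and 7, entered the estimate of the spread and are otherwise described only where the D3 level calls for it.

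Fibroblasts hold themselves on a stiff matrix with actin stress fibres, secrete collagen and express few cell-cell junction genes. When they are turned into pluripotent stem cells they are known to lose this contractile and secretory programme, to gain E-cadherin and other epithelial junction genes, and to switch on the network around Oct4, Sox2 and Nanog. Serum response factor is the main activator of actin and other contractile genes, YAP and TGF-beta signals are major activators of matrix genes, and AP-1 factors keep many fibroblast enhancers active.

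The D3 libraries held 3303693 (replicate 1) and 1365989 (replicate 2) estimated counts, against 2176457 and 1492105 in the D0 libraries. At these depths 3 counts stood for 0.908 and 2.20 CPM at D3 and for 1.38 and 2.01 CPM at D0. CPM are library-size scaled counts. These values used total counts alone, whereas all other CPM given here also have TMM scaling by edgeR. The TMM factors were 1.04 and 0.988 at D3 and 0.945 and 0.900 at D0. On the TMM scale 3 counts therefore stood for more CPM at D0 than given here. Mitochondrial messenger RNAs took 3.09% and 5.36% of the counts at D3 and 2.75% and 2.17% at D0. The labelled cell type could be read from its markers. The 8 fibroblast markers (Col1a1, Col1a2, Col3a1, Thy1, Pdgfra, Pdgfrb, Prrx1 and Vim) summed to 1391 and 1654 CPM at D3 and to 11690 and 13310 CPM at D0, none was at 0, and 7 of 8 were called lower at D3. In bulk RNA, fewer fibroblasts in the culture and less of each RNA per cell cannot be told apart, and this holds for every result below. Replicate libraries differed beyond counting error on both days (chi-square per gene 13.2 at D3 and 7.76 at D0) and were kept as separate samples. The series speaks of independent experiments but not of separate embryos, so the p-values rest on the spread among these libraries alone, and that spread may be technical.

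Of 12752 genes tested, 2742 differed between D3 and D0 at an adjusted p under 0.05 (21.5%). These were 1339 higher (10.5%) and 1403 lower (11%) at D3. Here and below an adjusted p is that of edgeR's quasi-likelihood F test with Benjamini-Hochberg adjustment over all genes tested, and a gene is called where it is under 0.05. The changes were large: 2364 of the called genes differed at least 2-fold, 1168 at least 4-fold and 352 at least 16-fold, the last made up of 283 higher and 69 lower genes. The median log2 change over all genes tested was 0.02. Across these genes the D3 minus D0 difference of the replicate 1 libraries and that of the replicate 2 libraries had a Pearson correlation of 0.751 and a Spearman correlation of 0.672, a description only, since genes are not independent replicates. Without the replicate number in the model 1549 genes were called (12.1%), and leaving out a single library left 1400 (D3 replicate 1), 2006 (D3 replicate 2), 1270 (D0 replicate 1) or 1377 (D0 replicate 2). As a share of all genes tested, the higher and lower calls were 6.21% and 5.94% without the replicate number, and 8.96% and 9.42% by DESeq2 (18.4% in all). They were 5.79% and 5.19% without D3 replicate 1, 7.94% and 7.79% without D3 replicate 2, 4.64% and 5.32% without D0 replicate 1 (9.96% in all), and 5.23% and 5.57% without D0 replicate 2. The list counts given below for these settings are to be read against these shares. Of the 2742 called genes 922 stayed called without each of the 4 libraries.

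**Figure D1:**
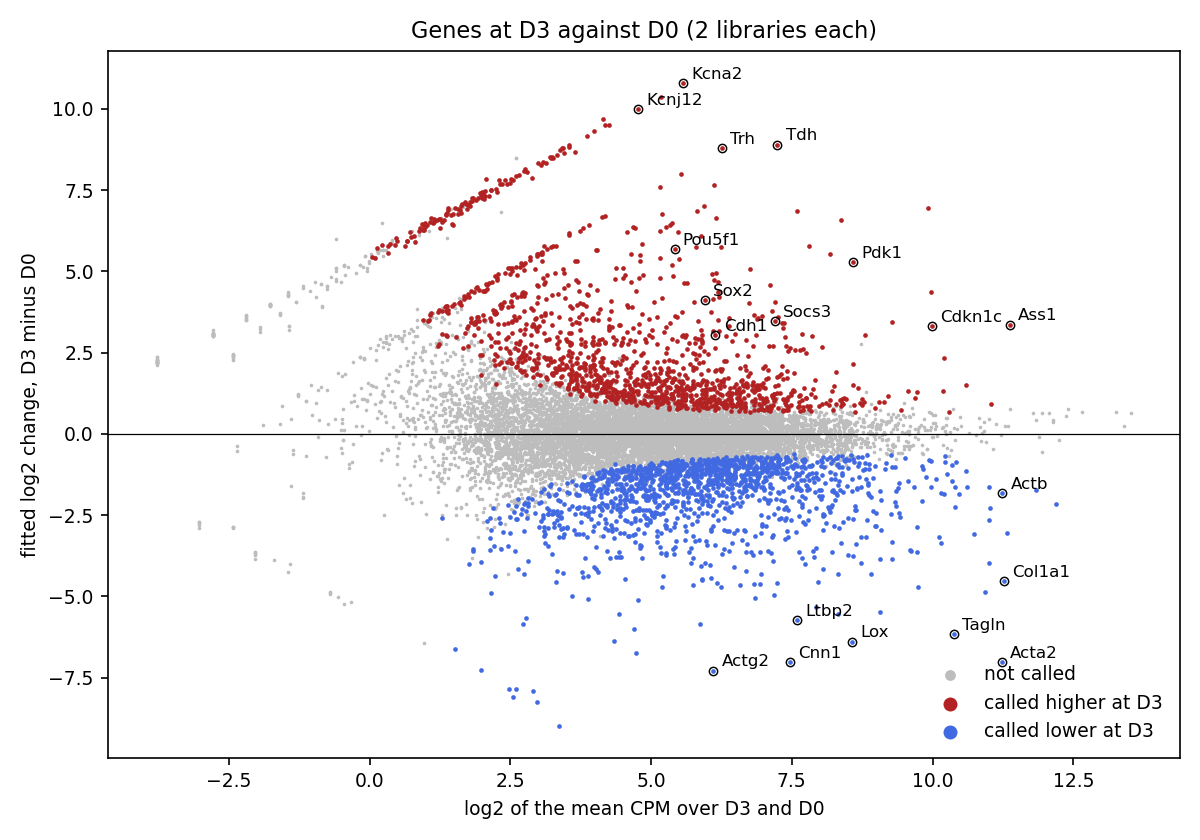
Fitted log2 change, D3 minus D0, of each gene tested (y axis) against the log2 of its mean CPM over D3 and D0 (x axis). Red points are the 1339 genes called higher at D3, blue points the 1403 called lower and grey points the rest, with genes at 0 on both days left out; the lines of points at upper left are genes at 0 or near 0 at D0, whose fitted change depends on their D3 count.

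The delivered factors themselves had similar levels on both days. Esrrb had 1913 and 2886 CPM at D3 and 1579 and 1836 CPM at D0. Sall4 had 1612 and 3103 CPM at D3 and 2070 and 2677 CPM at D0. Jdp2 had 1503 and 892 CPM at D3 and 951 and 561 CPM at D0, and Glis1 had 62 and 312 CPM at D3 and 74.9 and 207 CPM at D0. For Jdp2 and Esrrb both D3 libraries exceeded the D0 library of the same number, whereas for Sall4 and Glis1 the replicates went opposite ways. None of the 4 was called. The log2 change of Esrrb was 0.47 (SE 0.26, adjusted p = 0.229) and that of Sall4 was -0.05 (SE 0.26, adjusted p = 0.93), while Jdp2 had 0.67 (SE 0.31, adjusted p = 0.158) and Glis1 had 0.24 (SE 0.32, adjusted p = 0.649). None reached an unadjusted p under 0.05, DESeq2 called none, and 1 was called higher in a fit of the 4 libraries alone. Gene counts cannot separate viral from endogenous transcripts.

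Contractile genes and targets of serum response factor were lower at D3 in nearly every member tested. Of 23 tested members 22 were called lower at D3, none was called higher, and the median log2 change was -2.84. Acta2, smooth muscle actin (chromosome 19, 34241090 to 34255590 on GRCm38), had 36.9 and 34.3 CPM at D3 and 4578 and 4932 CPM at D0. Cnn1, calponin, had 2.34 and 2.98 CPM at D3 and 344 and 357 CPM at D0. Tagln, the actin-binding transgelin, had 35.1 and 37.3 CPM at D3 and 2506 and 2745 CPM at D0. Each of these 3 genes lay far apart between the days and close together within a day. Their log2 changes were -7.01 (SE 0.53, adjusted p = 4.19e-06), -7.02 (SE 0.43, adjusted p = 1.28e-06) and -6.16 (SE 0.56, adjusted p = 1.42e-05). Myl9, a regulatory light chain of non-muscle myosin, had 9.36 and 14.9 CPM at D3 and 424 and 522 CPM at D0 (log2 change -5.33, SE 0.35, adjusted p = 2.02e-06). Lmod1, leiomodin, had 0.293 and 0.745 CPM at D3 and 54.3 and 51.6 CPM at D0, a ratio of 0.00789 with a 95% counting interval of 0.000948 to 0.0289. Actg2, enteric smooth muscle actin, had 1.17 and 0 CPM at D3 and 138 and 137 CPM at D0. The cytoplasmic actins fell less: Actb had 1003 and 1085 CPM at D3 and 3079 and 4488 CPM at D0 (log2 change -1.82, SE 0.24, adjusted p = 0.000188), and Actg1 had 1545 and 1854 CPM at D3 and 5143 and 6020 CPM at D0 (-1.72, SE 0.22, adjusted p = 0.000165). By TPM, which corrects for gene length, the 24 genes of the list made up 0.161% and 0.167% of the RNA at D3 and 1.76% and 1.78% at D0. Synpo2, which encodes an actin-bundling protein, was the tested member without a call (log2 change -1.18, adjusted p = 0.18). Without D3 replicate 1 or D0 replicate 1 the log2 change was -7.74 or -6.36 for Acta2 and -6.93 or -5.33 for Tagln. Without D3 replicate 1 it was -6.11 for Lmod1 and -11.36 for Actg2.

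The site that serum response factor binds is known as the CArG box, and 4 promoters of this list hold one within 250 bases before to 50 bases after the gene start. They are shown 5′ to 3′ on the gene's strand, from RefSeq on GRCm38.p6, because all 4 genes were called lower, with the CArG box in capitals. Myl9 is at chr2:156775214-156775513 (plus strand), Cnn2, calponin 2, at chr10:79988350-79988649 (plus strand), Vcl, vinculin, at chr14:20929148-20929447 (plus strand), and Srf, serum response factor itself, at chr17:46556113-46556412 (minus strand).
Myl9: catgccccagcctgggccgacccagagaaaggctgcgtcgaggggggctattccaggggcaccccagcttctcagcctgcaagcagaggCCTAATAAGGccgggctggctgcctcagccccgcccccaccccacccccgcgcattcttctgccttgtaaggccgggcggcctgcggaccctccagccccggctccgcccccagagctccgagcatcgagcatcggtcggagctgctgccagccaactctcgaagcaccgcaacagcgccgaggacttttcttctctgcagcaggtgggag
Cnn2: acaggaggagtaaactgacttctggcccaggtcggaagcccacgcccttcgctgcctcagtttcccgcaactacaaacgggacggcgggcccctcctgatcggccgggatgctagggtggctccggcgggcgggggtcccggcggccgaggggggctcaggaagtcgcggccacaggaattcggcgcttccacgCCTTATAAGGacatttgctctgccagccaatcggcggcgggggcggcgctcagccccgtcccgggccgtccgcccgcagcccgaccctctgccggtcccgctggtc
Vcl: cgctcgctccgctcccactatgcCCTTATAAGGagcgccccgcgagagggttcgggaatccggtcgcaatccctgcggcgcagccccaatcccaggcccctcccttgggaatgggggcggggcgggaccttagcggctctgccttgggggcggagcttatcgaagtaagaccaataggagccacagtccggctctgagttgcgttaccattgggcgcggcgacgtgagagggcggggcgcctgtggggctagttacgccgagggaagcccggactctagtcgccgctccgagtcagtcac
Srf: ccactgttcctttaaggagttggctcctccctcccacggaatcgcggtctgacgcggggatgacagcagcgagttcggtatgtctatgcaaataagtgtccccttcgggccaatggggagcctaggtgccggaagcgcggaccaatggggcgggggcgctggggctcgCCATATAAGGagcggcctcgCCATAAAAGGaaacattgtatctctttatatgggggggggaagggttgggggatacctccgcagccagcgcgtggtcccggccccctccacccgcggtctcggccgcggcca
The box begins 161 bases before the start of Myl9, 56 before that of Cnn2 and 227 before that of Vcl, and Srf has 2 boxes, 82 and 62 bases before its start. The box was found in 4 of the 20 listed promoters of this group (20%), in 3.37% of the 1067 listed promoters of genes called lower, in 0.914% of 985 of genes called higher and in 1.6% of 9650 of all genes tested. Over all 32851 windows of 300 bases it was found in 1.63%. An AP-1 site (TGANTCA, both strands) was found in 7.4% of promoters of lower genes, 5.69% of those of higher genes and 5.65% of those of all genes tested (7.81% of all windows). These are matches of letters in a short window and say nothing of binding. The list was drawn up to hold targets of serum response factor, so its share of the box could follow from that choice. Its 4 promoters with a box are also among those of genes called lower.

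Of 18 tested collagen chains 15 were called lower and none higher, with a median log2 change of -2.99. Col1a1, a chain of the main fibrillar collagen, had 200 and 194 CPM at D3 and 3933 and 5530 CPM at D0 (log2 change -4.53, SE 0.31, adjusted p = 2.88e-06). Its partner Col1a2 had 249 and 241 CPM at D3 and 4055 and 3666 CPM at D0, and the fibril-associated Col12a1 had 47.1 and 84.2 CPM at D3 and 1701 and 1612 CPM at D0. In each of these genes both D3 libraries lay far below both D0 libraries. Col5a1, Col5a2 and Col8a1 fell by 3.64, 3.61 and 3.43 on the log2 scale, and Col7a1, Col15a1 and Col18a1 were not called. Among enzymes that crosslink and process collagen 14 of 20 were called lower (median -1.31). Lox, lysyl oxidase, had 7.02 and 11.9 CPM at D3 and 757 and 748 CPM at D0 (log2 change -6.39, SE 0.38, adjusted p = 1.28e-06). Its relatives Loxl3 and Loxl2 fell by 4.48 and 4.30 on the log2 scale, and the prolyl hydroxylases P4ha2 and P4ha1, which stabilise the collagen helix, fell by 2.41 and 2.05. The count of this list was less settled than that of the collagens, with 8 of 20 lower without the replicate number in the model, 9 without D3 replicate 1 and 7 without D0 replicate 1.

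Glycoproteins and proteoglycans of the matrix had 20 of 24 tested members lower and 2 higher (median log2 change -2.26). Thbs1, thrombospondin, had 92.8 and 182 CPM at D3 and 3382 and 4113 CPM at D0 (log2 change -4.85, SE 0.31, adjusted p = 1.59e-06). Ltbp2, which binds microfibrils, had 6.14 and 8.2 CPM at D3 and 359 and 395 CPM at D0 (-5.74, SE 0.29, adjusted p = 7.02e-07), the smallest adjusted p among the genes named here. Bgn, the proteoglycan biglycan, had 477 and 662 CPM at D3 and 4459 and 4690 CPM at D0 and was among the 5 genes with the largest fall in TPM. Tenascin C (Tnc) and the fibrillins Fbn2 and Fbn1 fell by 3.85, 3.65 and 3.39 on the log2 scale. Against this direction Spp1, osteopontin, had 244 and 442 CPM at D3 and 49.9 and 61.4 CPM at D0 (log2 change 2.56, SE 0.27, adjusted p = 3.57e-05). The other member called higher, Fbln1, had 253 and 259 CPM at D3 and 144 and 138 CPM at D0, and its call (adjusted p = 0.0468) was lost when any of the 4 libraries was left out (alternatives 0.00328 to 0.309, the last without D0 replicate 2). Matrix proteases and their inhibitors had 13 of 19 lower and 2 higher (median -2.10). Plau, the protease urokinase, had 22.2 and 42.5 CPM at D3 and 223 and 212 CPM at D0 (log2 change -2.85, SE 0.44, adjusted p = 0.000618). The gelatinase Mmp9 fell by 3.73 on the log2 scale. The members called higher were Mmp15 (30.4 and 20.9 CPM at D3, 7.83 and 3.74 CPM at D0) and Mmp10 (2.63 and 3.73 CPM at D3, 0 counts at D0). Mmp15 lost its call without D3 replicate 1 or D0 replicate 2, and Mmp10 when any of the 4 libraries was left out.

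All 7 tested genes of the caveola coat, which lines small pits of the fibroblast membrane, were called lower, with a median log2 change of -3.73. Cav1, the main coat protein, had 7.32 and 11.9 CPM at D3 and 318 and 246 CPM at D0 (log2 change -4.96, SE 0.35, adjusted p = 3.01e-06). The coat proteins Cavin1, Cavin2 and Ehd2 fell by 3.73, 4.46 and 3.93 on the log2 scale. Cav2 had a log2 change of -2.44 (adjusted p = 0.0137), a call lost without D3 replicate 1 or D0 replicate 1 (alternatives 3.29e-05 to 0.204). Fibroblast surface and identity markers had 8 of 11 lower and 1 higher (median -3.25). Thy1 had 18.4 and 18.6 CPM at D3 and 201 and 152 CPM at D0 (log2 change -3.25, SE 0.27, adjusted p = 7.56e-06). The growth factor receptor Pdgfrb fell by 3.79 and the hyaluronan receptor Cd44 by 3.65 on the log2 scale. The related receptor Pdgfra was not called (log2 change -0.39, adjusted p = 0.47). Nt5e, the surface nucleotidase CD73, went the other way, with 81.9 and 64.1 CPM at D3 and 7.83 and 12 CPM at D0 (log2 change 2.91, SE 0.36, adjusted p = 0.000134; 2.33 without D0 replicate 1 and 3.52 without D0 replicate 2).

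Mesenchymal regulators and markers had 16 of 23 lower and none higher (median log2 change -1.64). The homeobox gene Prrx2 had 6.14 and 7.45 CPM at D3 and 87.1 and 114 CPM at D0 (log2 change -3.83, SE 0.41, adjusted p = 4.15e-05). Vim, the intermediate filament vimentin, had 687 and 805 CPM at D3 and 2004 and 2728 CPM at D0 (-1.64, SE 0.29, adjusted p = 0.00154), a smaller change from a high level. S100a4, a calcium-binding protein of motile cells, fell by 3.63. The transcription factors that drive the epithelial to mesenchymal change were less clear. Zeb1 had 32.2 and 41.7 CPM at D3 and 74.4 and 76.3 CPM at D0 (log2 change -1.05, adjusted p = 0.0142; alternatives 0.00191 to 0.19). Snai2 had 11.7 and 15.7 CPM at D3 and 38.2 and 27.7 CPM at D0 (log2 change -1.33, adjusted p = 0.0499; alternatives 0.00206 to 0.432). Zeb1 lost its call without D3 replicate 1, D0 replicate 1 or D0 replicate 2, and Snai2 when any of the 4 libraries was left out. Twist1, with 33.4 and 46.9 CPM at D3 and 60.7 and 75.6 CPM at D0, was not called (adjusted p = 0.0886). Neither was N-cadherin, Cdh2, with 86 and 93.1 CPM at D3 and 78.8 and 126 CPM at D0 (log2 change -0.16, adjusted p = 0.718).

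Among YAP targets 9 of 14 were called lower and 1, Nt5e, higher (median log2 change -2.38). The matricellular gene Ccn2 had 73.7 and 93.1 CPM at D3 and 670 and 862 CPM at D0 (log2 change -3.19, SE 0.30, adjusted p = 1.86e-05). The receptor kinase Axl had 33.6 and 73 CPM at D3 and 668 and 915 CPM at D0 (-3.99, SE 0.30, adjusted p = 4.19e-06), and Amotl2, which binds YAP, had 80.8 and 98.4 CPM at D3 and 745 and 872 CPM at D0 (-3.17, SE 0.24, adjusted p = 4.29e-06). TGF-beta ligands and targets had 10 of 20 lower and 1 higher (median -1.04), or 6 lower without the replicate number in the model, without D3 replicate 1 or without D0 replicate 1. The ligand Tgfb2 fell by 1.99, its relative Tgfb3 by 2.25 and the feedback inhibitor Smad7 by 2.07 on the log2 scale. Bambi, a decoy receptor that dampens TGF-beta and BMP signals, rose (76.4 and 94.6 CPM at D3, 21 and 21.7 CPM at D0, log2 change 1.98, SE 0.32, adjusted p = 0.00085). BMP ligands and Id targets had 7 of 18 lower (median -0.75), or 4 without the replicate number. Among them were Id3, a repressor of differentiation factors, with 58.5 and 61.9 CPM at D3 and 179 and 215 CPM at D0, and the inhibitor Smad6, with 10.8 and 25.3 CPM at D3 and 82.7 and 109 CPM at D0 (log2 change -2.53, adjusted p = 0.0001).

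Secreted inflammatory factors had 10 of 14 tested members lower and none higher (median log2 change -2.96). Csf1, the macrophage growth factor, had 62 and 75.3 CPM at D3 and 897 and 1115 CPM at D0 (log2 change -3.86, SE 0.27, adjusted p = 2.88e-06). The chemokine Cxcl12 had 12 and 22.4 CPM at D3 and 178 and 224 CPM at D0, and the prostaglandin synthase Ptgs2 had 2.93 and 5.96 CPM at D3 and 103 and 103 CPM at D0. These 3 genes stayed called without each library, but the list count went to 4 without D3 replicate 1, 5 without D0 replicate 1 and 6 without the replicate number. Interferon-stimulated genes had 1 of 18 higher, Rtp4, and 1 lower, Ifit2 (median -0.19). Rtp4 was not called without D3 replicate 1, D0 replicate 1 or D0 replicate 2, and Ifit2 not without D0 replicate 2. Among AP-1 genes other than Jdp2, 4 of 12 were called lower and 3 higher (median -0.17). Fosl2 had 10.8 and 22.4 CPM at D3 and 64.1 and 67.4 CPM at D0 (log2 change -2.12, SE 0.34, adjusted p = 0.000856). Fos and Jun, the founding members, were not called (log2 changes 0.80 and -0.66, adjusted p = 0.18 and 0.13). The lower AP-1 count was 1 without D3 replicate 1 or the replicate number and 2 without D0 replicate 1, and the higher count was 1 without D3 replicate 2 or D0 replicate 2. Immediate early genes, which answer growth factors within minutes, had 8 of 14 lower and 1 higher (median -1.01). Klf6, a zinc finger factor, was called without each library and without the replicate number (39.5 and 68.5 CPM at D3, 150 and 153 CPM at D0, log2 change -1.56, adjusted p = 0.00133). The higher member, Klf10, was called without D3 replicate 1 but not without any other of the 4 libraries or the replicate number. The list had 1 lower without the replicate number, 2 without D3 replicate 1, 5 without D3 replicate 2 and 2 without D0 replicate 1.

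**Figure D2:**
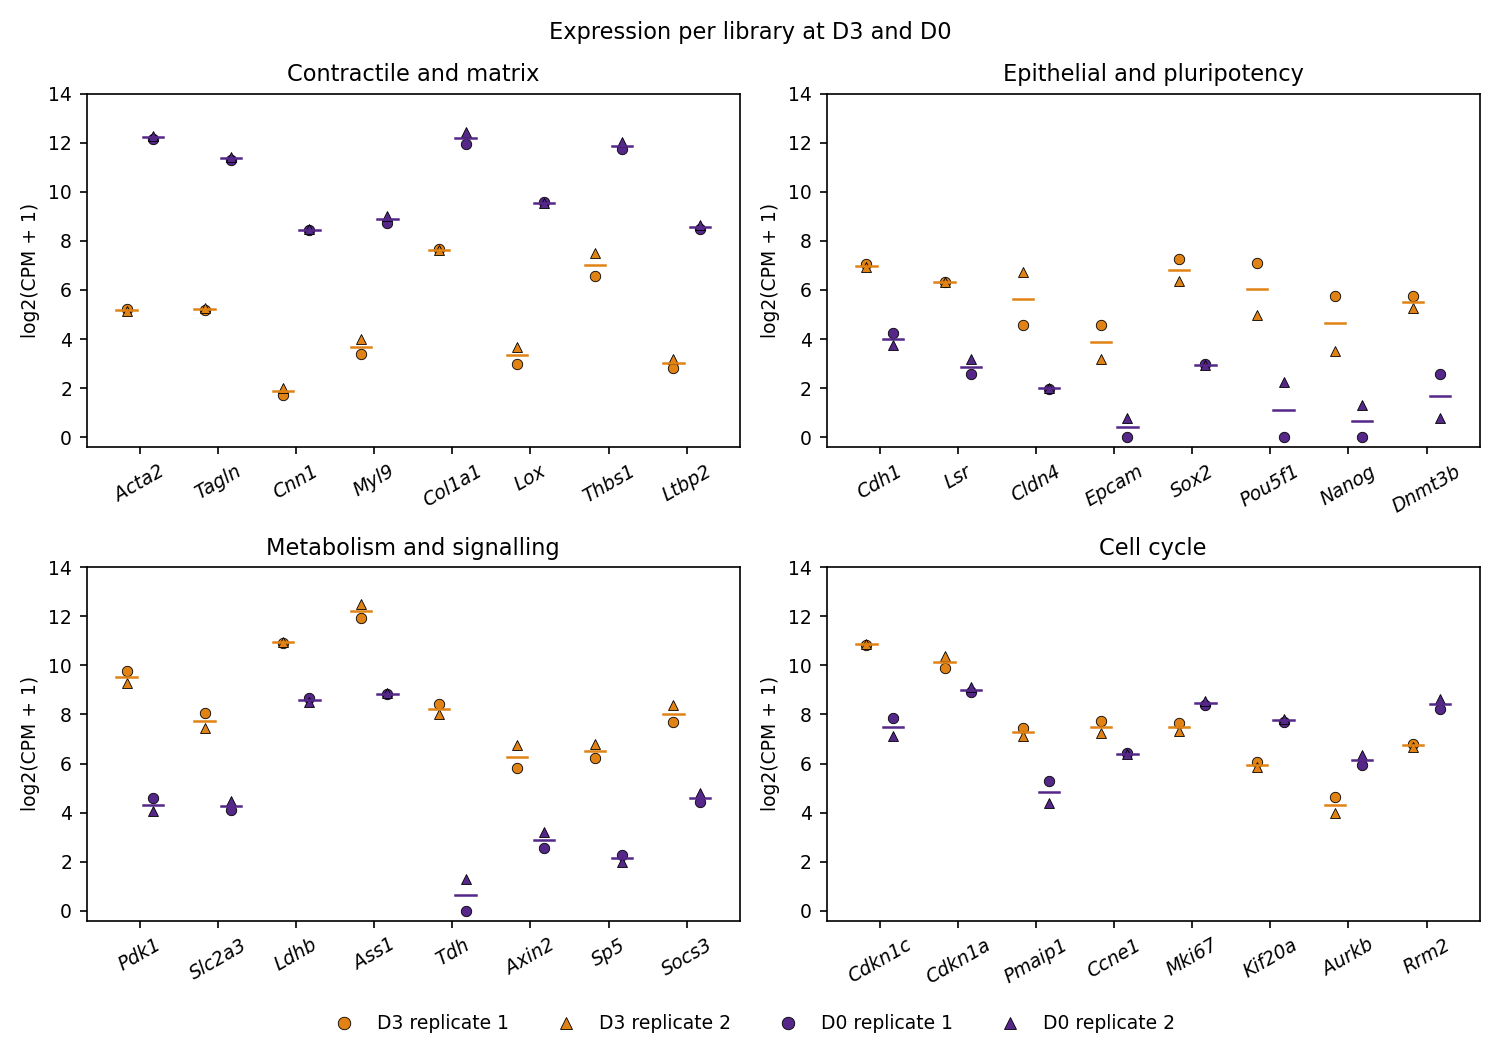
Expression of 32 genes in each D3 library (orange, left) and D0 library (purple, right) as log2(CPM + 1), with circles for replicate 1, triangles for replicate 2 and a bar at the mean of the 2 log values. Contractile and matrix genes are lower in both D3 libraries, while Pou5f1 and Nanog are spread over the D3 replicates and rest on few D0 counts.

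Of 35 tested members of the pluripotency network 15 were called higher and none lower, with a median log2 change of 3.005, or 1.98 with genes at or near 0 set to their bound. A gene silent at D0 could enter the test only through a later day, so this count and median describe the list and are not evidence of a rise. Sox2, a core factor, had 154 and 81.2 CPM at D3 and 6.85 and 6.74 CPM at D0 (log2 change 4.10, SE 0.31, adjusted p = 4.29e-06). The gene of Oct4, Pou5f1 (chromosome 17, 35506018 to 35510772), had 137 and 30.6 CPM at D3 and 0 and 3.74 CPM at D0, and the 2 D3 libraries differed widely while both exceeded D0. Its log2 change of 5.68 (SE 0.85, adjusted p = 0.000508) was 4.45, 6.37, 3.90 or 11.01 without D3 replicate 1, D3 replicate 2, D0 replicate 1 or D0 replicate 2. Nanog had 53.3 and 10.4 CPM at D3 and 0 and 1.5 CPM at D0, a ratio of 69.6 with a counting interval of 19 to 579. Its adjusted p of 0.000835 became 0.0616 without D0 replicate 1 and was as low as 5.43e-18 under the other alternatives. Nr0b1, the nuclear receptor Dax1, had 15.5 and 28.3 CPM at D3 and 0 counts at D0, at least 21.5-fold higher (adjusted p = 7.41e-05). A fold of this kind sets the D0 level at 3 counts over both libraries. No count of Tdgf1, the Nodal co-receptor, or of Dppa2 was seen at D0, and they were at least 9.94-fold and 6.39-fold higher at D3. Dppa2 was not called without D3 replicate 1, without D0 replicate 1 or without the replicate number (alternatives 4.17e-05 to 0.127). Lin28a, which blocks let-7 microRNAs, was at least 11.1-fold higher and lost its call without D3 replicate 1 or D0 replicate 1 (alternatives 3.08e-08 to 0.0622). Klf4 (33.9 and 33.5 CPM at D3, 32.3 and 47.1 CPM at D0, adjusted p = 0.759) and Tet1 (19.6 and 11.9 CPM at D3, 7.83 and 8.98 CPM at D0, adjusted p = 0.355) were not called. Of the list, 9 genes were called without D3 replicate 1 and 7 without D0 replicate 1.

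Epithelial junction genes had 14 of 27 tested members higher and 1 lower (median log2 change 2.18, or 1.99 with bounds), and the same limit on genes silent at D0 applies. Cdh1, E-cadherin (chromosome 8, 106603351 to 106670246), had 131 and 122 CPM at D3 and 18.1 and 12.7 CPM at D0 (log2 change 3.04, SE 0.26, adjusted p = 9.62e-06). Lsr, a receptor of tricellular junctions, had 78.4 and 79.7 CPM at D3 and 4.89 and 8.23 CPM at D0 (3.64, SE 0.37, adjusted p = 2.84e-05). The desmosomal cadherin Dsg2 had 22.2 and 22.4 CPM at D3 and 1.96 and 0.748 CPM at D0 (3.93, SE 0.64, adjusted p = 0.000879). In these 3 genes the D3 libraries lay close together and well above D0. The tight junction gene Cldn4 had 22.5 and 105 CPM at D3 and 2.94 and 2.99 CPM at D0 (log2 change 4.07, SE 0.51, adjusted p = 0.000144), and was 4.93 without D0 replicate 1 and 3.20 without D0 replicate 2. Epcam had 22.5 and 8.2 CPM at D3 and 0 and 0.748 CPM at D0, a ratio of 62.5 (10.9 to 2496), and its adjusted p of 0.0011 became 0.0604 without D0 replicate 1 (lowest 1.69e-11). The simple epithelial keratins Krt8 (adjusted p = 0.19) and Krt18 (0.75) and the splicing regulator Esrp1 (0.53) were not called. The higher count was 9 without D3 replicate 1, 7 without D0 replicate 1 and 9 without D0 replicate 2. The lower member, Pkp2 of the desmosome (log2 change -0.93, adjusted p = 0.0464), was not called when any of the 4 libraries or the replicate number was left out, with upper-quartile scaling, with no low-count filter or by DESeq2.

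Among Wnt feedback genes and targets 10 of 25 were called higher and 4 lower (median log2 change 1.35, or 1.38 with bounds). Without the replicate number 9 were called higher and 4 lower. A member silent at D0 could be tested only through a later day, so this count and median describe the list. Axin2, a negative feedback gene of the pathway, had 54.7 and 108 CPM at D3 and 4.89 and 8.23 CPM at D0 (log2 change 3.60, SE 0.34, adjusted p = 1.72e-05). The transcription factor Sp5 had 74.9 and 110 CPM at D3 and 3.91 and 2.99 CPM at D0 (4.63, SE 0.43, adjusted p = 1.5e-05; 5.42 without D0 replicate 1). Notum, an enzyme that inactivates Wnt ligands, had 34.2 and 52.9 CPM at D3 and 1.47 and 1.5 CPM at D0 (4.79, SE 0.46, adjusted p = 1.85e-05). All 3 were high in both D3 libraries and low in both D0 libraries. The members called lower were the secreted factors Dkk2, Dkk3 and Sfrp1 and the receptor Fzd2, with log2 changes of -2.87, -2.23, -1.84 and -1.72. Dkk2 was -4.19 without D3 replicate 1 and lost its call without D3 replicate 2, D0 replicate 1 or D0 replicate 2, Sfrp1 lost it without D3 replicate 1, and Dkk3 stayed called without each library. Regulators of the primitive streak and germ layers, which Wnt and Nodal signals induce in the embryo, had 7 of 16 higher and none lower (median 2.71, or 2.44 with bounds). The limit given above for genes silent at D0 holds here too, so this count and median only describe the list. Mixl1, a streak homeobox gene, had 17.9 and 22.4 CPM at D3 and 0 counts at D0, at least 21.5-fold higher (adjusted p = 0.000127). Foxa2, of endoderm, had 18.7 and 16.4 CPM at D3 and 0.489 and 0 CPM at D0, a ratio of 61.1 (10.7 to 2440), and the ligand Nodal had 14.9 and 10.4 CPM at D3 and 0.489 and 0 CPM at D0, a ratio of 46.2 (8 to 1851). The streak count was 4 without D3 replicate 1, D0 replicate 1 or D0 replicate 2. Trophoblast and extraembryonic endoderm genes had 3 of 14 higher, or 1 without D0 replicate 1, and 4 lower (median -0.62), the lower ones including the basement membrane chain Col4a1 (587 and 735 CPM at D3, 1887 and 2182 CPM at D0).

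In the LIF and STAT3 pathway, which supports self-renewal of mouse pluripotent cells, 4 of 13 genes were higher and 3 lower (median log2 change -0.19), with 2 higher without D3 replicate 2 and 1 lower without D3 replicate 1 or D0 replicate 1. Socs3, its feedback inhibitor, had 206 and 333 CPM at D3 and 20.6 and 26.9 CPM at D0 (log2 change 3.47, SE 0.25, adjusted p = 3.16e-06). The receptor gene Il6ra had 15.2 and 13.4 CPM at D3 and 1.47 and 1.5 CPM at D0 (3.24, SE 0.58, adjusted p = 0.00162). The kinase Pim1, another target of the pathway, moved the other way, with 10.2 and 23.1 CPM at D3 and 48.4 and 86.8 CPM at D0 (-2.07, SE 0.37, adjusted p = 0.0017). Among feedback genes of the ERK pathway 3 of 15 were higher and 4 lower (median 0.15). Spry2, a feedback inhibitor, had 128 and 102 CPM at D3 and 38.6 and 45.7 CPM at D0, and the transcription factor Etv5 had 110 and 136 CPM at D3 and 46.5 and 45.7 CPM at D0 (log2 changes 1.47 and 1.41, adjusted p = 0.0012 and 0.0027). Fgf7, a ligand made by mesenchyme, was at 0 counts at D3 and had 18.1 and 13.47 CPM at D0, at least 25.8-fold lower (adjusted p = 0.00289, alternatives 3.47e-08 to 0.0524, the last without D3 replicate 1). The lower count of this list was 0 without D3 replicate 1 and 1 without D0 replicate 1.

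Of 24 mitosis genes 20 were called lower at D3 and none higher, with a median log2 change of -1.11, a much smaller shift than in the contractile list. Kif20a, a kinesin of cell division, had 65.3 and 56.6 CPM at D3 and 206 and 225 CPM at D0 (log2 change -1.83, SE 0.27, adjusted p = 0.000402). The kinase Aurkb had 24 and 14.9 CPM at D3 and 59.7 and 80.8 CPM at D0 (-1.78, SE 0.30, adjusted p = 0.00105). Mki67, a proliferation antigen, had 198 and 162 CPM at D3 and 337 and 376 CPM at D0 (-1.01, SE 0.34, adjusted p = 0.0484), a call lost when any of the 4 libraries was left out (alternatives 0.0017 to 0.445; log2 change -0.60 without D0 replicate 2). The mitosis count was 8 without the replicate number, 13 without D3 replicate 1, 8 without D3 replicate 2, 13 without D0 replicate 1 and 4 without D0 replicate 2. DNA replication genes had 3 of 34 higher and 3 lower (median -0.24), with no higher call without D3 replicate 1 or D0 replicate 1 and 1 lower call without D3 replicate 1, D0 replicate 1 or D0 replicate 2. The nucleotide reductase subunit Rrm2 fell (111 and 101 CPM at D3, 294 and 392 CPM at D0, log2 change -1.70, SE 0.27, adjusted p = 0.000686). Cyclin E1, Ccne1, which drives entry into replication, had 210 and 151 CPM at D3 and 84.2 and 83.8 CPM at D0 (1.10, SE 0.25, adjusted p = 0.00754; alternatives 0.000102 to 0.108), a call lost without D3 replicate 1 or D0 replicate 1.

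Inhibitors of the cell cycle and p53 targets had 5 of 28 higher and 9 lower (median log2 change -0.03). Cdkn1c, the kinase inhibitor p57 (chromosome 7, 143458339 to 143461050), had 1839 and 1872 CPM at D3 and 230 and 138 CPM at D0 (log2 change 3.31, SE 0.40, adjusted p = 9.4e-05; 3.92 without D0 replicate 1). Pmaip1, the apoptosis gene Noxa, had 172 and 140 CPM at D3 and 37.7 and 20.2 CPM at D0 (2.43, SE 0.26, adjusted p = 3.81e-05), and the stress gene Gadd45a had 45.4 and 47.7 CPM at D3 and 8.81 and 15 CPM at D0 (2.02, SE 0.35, adjusted p = 0.00133). Cdkn1a, the p53 target p21, had 939 and 1323 CPM at D3 and 478 and 557 CPM at D0. Both D3 libraries lay above both D0 libraries, yet the call (log2 change 1.10, SE 0.29, adjusted p = 0.0171) was lost when any of the 4 libraries or the replicate number was left out (alternatives 3.52e-05 to 0.165). Mdm2, a p53 target that degrades p53, had a log2 change of -1.27 (adjusted p = 0.00405) and was not called without D3 replicate 1 or D0 replicate 1. Cdkn2a, the locus of p16 and p19Arf, had 14.6 and 17.1 CPM at D3 and 13.7 and 15 CPM at D0 (adjusted p = 0.835). The higher count of the list was 3 without D3 replicate 1, D0 replicate 2 or the replicate number. Its lower count was 3, 5, 1 or 4 without D3 replicate 1, D3 replicate 2, D0 replicate 1 or D0 replicate 2, and 5 without the replicate number. Of Myc and ribosome biogenesis genes 2 of 20 were lower, Myc and Mycn (log2 changes -1.02 and -0.96, adjusted p = 0.0346 and 0.0219), both lost when any of the 4 libraries or the replicate number was left out.

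Pdk1, which restrains the oxidation of pyruvate in mitochondria, had 874 and 620 CPM at D3 and 23 and 15.7 CPM at D0 (log2 change 5.28, SE 0.33, adjusted p = 1.28e-06). The glucose transporter Slc2a3 had 263 and 173 CPM at D3 and 16.1 and 21 CPM at D0 (3.54, SE 0.32, adjusted p = 1.37e-05). The lactate dehydrogenase subunit Ldhb had 1929 and 2005 CPM at D3 and 403 and 364 CPM at D0 (2.35, SE 0.42, adjusted p = 0.00175). The lactate exporter Slc16a3 went down, with 12.3 and 5.96 CPM at D3 and 59.2 and 74.8 CPM at D0 (-2.79, SE 0.34, adjusted p = 9.79e-05), and Gapdh was not called (3398 and 5491 CPM at D3, 3480 and 7032 CPM at D0, adjusted p = 0.577). In all, glycolysis and pyruvate genes had 7 of 25 higher and 3 lower (median log2 change -0.20). The higher count was 4 without the replicate number, without D3 replicate 2 or without D0 replicate 2, and the lower count was 1 without D0 replicate 2. Hypoxia-response genes had 4 of 15 higher and 5 lower (median 0.28), or 2 higher without the replicate number or any 1 library, and 2 lower without the replicate number or D3 replicate 1 and 3 without either D0 library, with the growth factor Vegfa higher (log2 change 1.33, adjusted p = 0.00179) and the peptide hormone Adm lower (-2.91, adjusted p = 0.000153).

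In amino acid and serine metabolism 5 of 27 genes were higher and 3 lower (median log2 change -0.70), with 1 lower without D3 replicate 2, 0 without D0 replicate 2 and 6 in a fit of the 4 libraries alone. Ass1, argininosuccinate synthase (chromosome 2, 31470207 to 31520672), had 3940 and 5752 CPM at D3 and 449 and 469 CPM at D0 (log2 change 3.36, SE 0.33, adjusted p = 2.11e-05). Its mean of 4299 TPM at D3, against 430.7 TPM at D0, was among the 5 largest rises in TPM. Tdh, threonine dehydrogenase, which mouse pluripotent cells use to break down threonine, had 348 and 258 CPM at D3 and 0 and 1.5 CPM at D0, a ratio of 545 (150 to 4502). Its log2 change of 8.90 (SE 0.55, adjusted p = 1.28e-06) was 7.35 without D0 replicate 1 and 12.84 without D0 replicate 2. Gldc, which breaks down glycine, had 31.6 and 42.5 CPM at D3 and 1.47 and 2.99 CPM at D0 (4.10, SE 0.53, adjusted p = 0.000174; 4.72 without D0 replicate 2). Cholesterol synthesis genes had 7 of 29 higher (median 0.29). No member was called without the replicate number, and 1 or 2 were when a library was left out. Oxidative phosphorylation genes had 13 of 26 higher (median 0.71), such as the complex I subunit Ndufv1 (174 and 157 CPM at D3, 69 and 89.8 CPM at D0, log2 change 1.09, adjusted p = 0.0124). This count was 1 without the replicate number, 2 without D3 replicate 1, 9 without D3 replicate 2 and 0 without either D0 library. Cytosolic ribosomal proteins had 1 of 38 higher, Rpl5 (median 0.28), which was not called without D3 replicate 1, D0 replicate 2 or the replicate number, and ER chaperones had 4 of 16 lower (median -0.56), a count of 1 without the replicate number or D0 replicate 1 and of 0 without D3 replicate 2 or D0 replicate 2. Fth1, the ferritin heavy chain, was among the 5 genes with the largest rise in TPM, with 2485 and 2091 CPM at D3 and 823 and 800 CPM at D0 (log2 change 1.505, adjusted p = 0.00403; alternatives 8.92e-09 to 0.0645, lost without D3 replicate 1 or D0 replicate 2). The others were Ass1, Ldhb, mt-Nd4l, a mitochondrial transcript, and Gm29216, which shares reads with near-identical copies and is uncertain. The rise of mt-Nd4l was also unsettled, with a log2 change of 0.87 without D0 replicate 1 and 1.97 without D0 replicate 2.

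**Figure D3:**
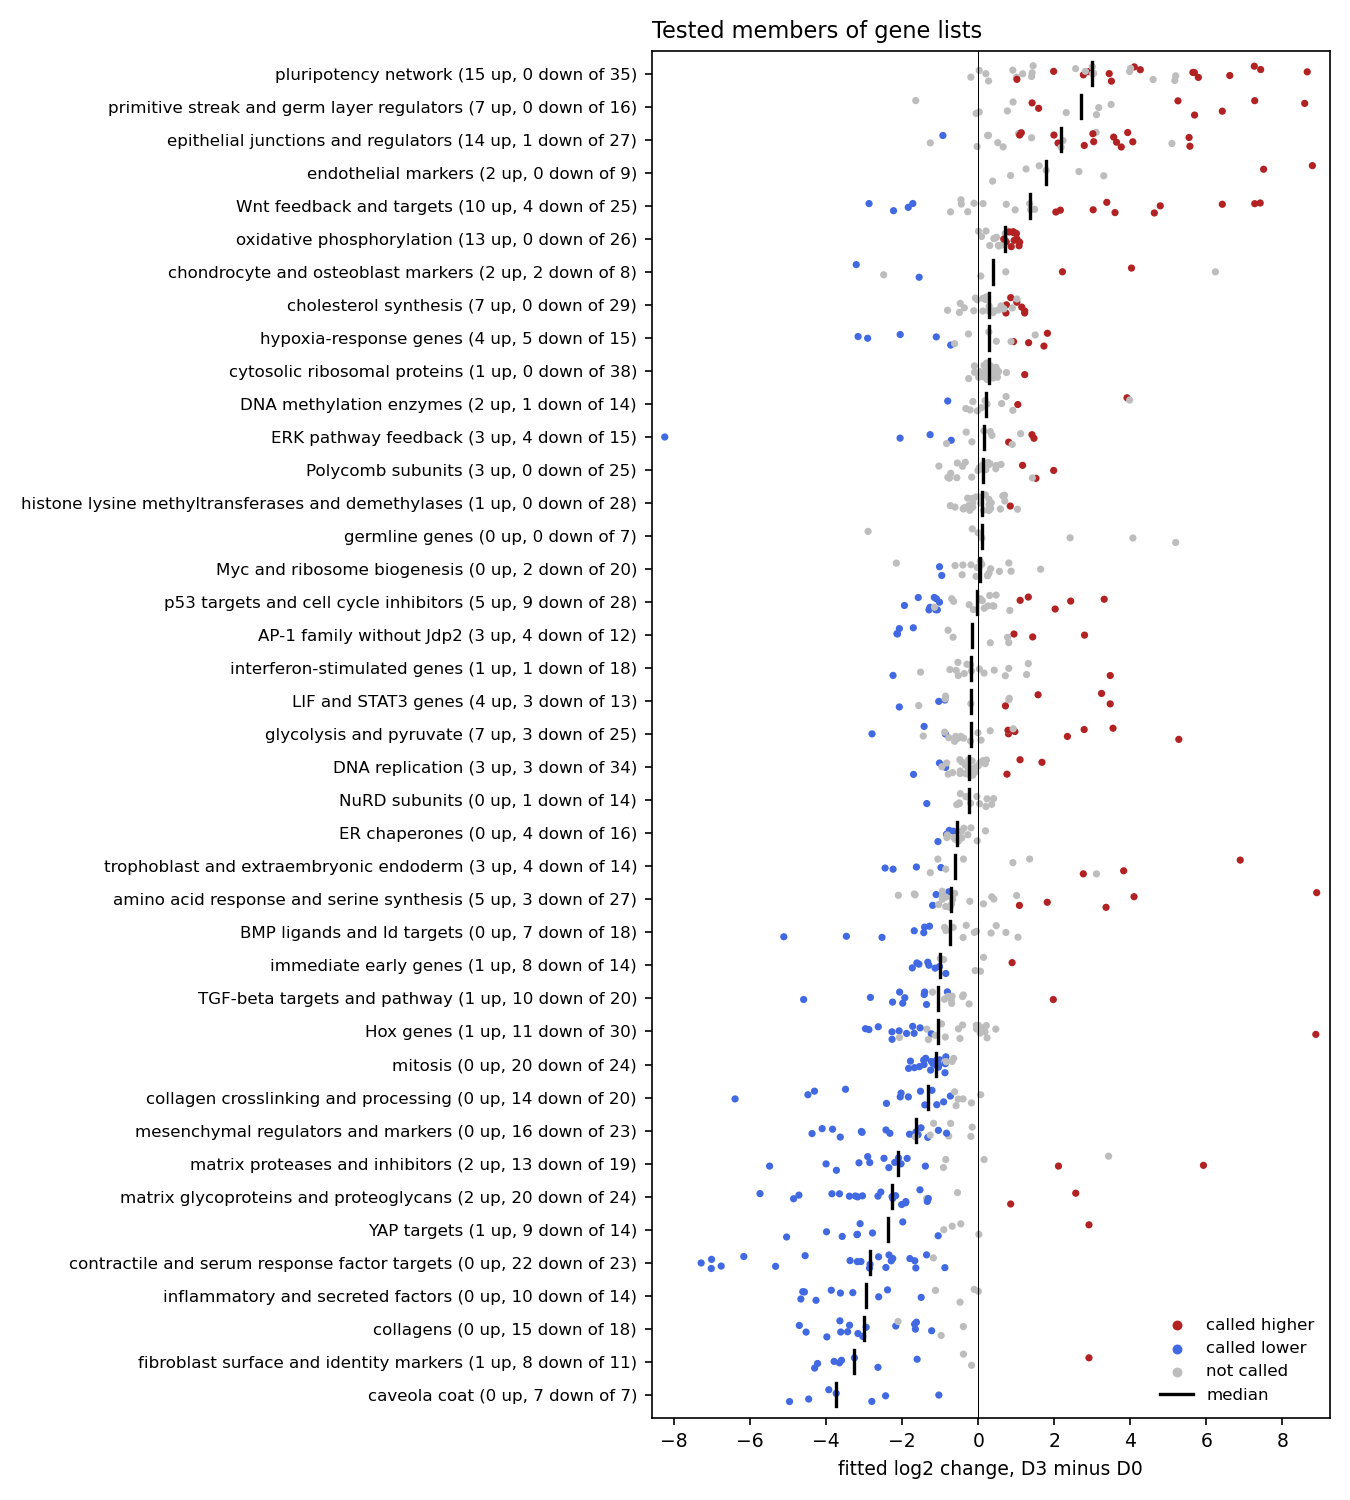
Fitted log2 change, D3 minus D0 (x axis), of each tested member of the gene lists with at least 7 tested members, sorted by the list median (black bar), with called members in red (higher) or blue (lower) and the others in grey. Caveola, fibroblast surface, collagen, inflammatory and contractile lists lie at the lower end, with medians of -3.73 to -2.84, and the pluripotency list at the upper end, with a median of 3.005.

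Many of the largest rises were of genes at 0 counts at D0. Such genes could enter the test only through a later day and were picked for the size of their rise. Their adjusted p-values and calls therefore describe selected genes and are not independent evidence of a rise. Kcna2, a voltage-gated potassium channel (chromosome 3, 107101146 to 107115005), had 63.8 and 126 CPM at D3 and was at least 91.6-fold higher (adjusted p = 4.68e-05). C1ql2, a secreted synaptic protein, had 48 and 96.1 CPM at D3 and was at least 69.4-fold higher (adjusted p = 5.18e-05). Kcnj12, an inward rectifier potassium channel, had 43.9 and 64.8 CPM at D3 and was at least 56.1-fold higher (adjusted p = 8.46e-06). All 3 were higher in D3 replicate 2 than in replicate 1. Usp51, a ubiquitin protease, was at least 37.2-fold higher, and neurogranin (Nrgn), Brinp2 and the amino acid transporter subunit Slc7a9 at least 35.8-, 31.2- and 25.3-fold higher. Trh, thyrotropin-releasing hormone, had 223 and 83.5 CPM at D3 and 0 and 0.748 CPM at D0, a ratio of 621 (111 to 24540). These 8 genes stayed called without each of the 4 libraries.

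Several of these levels were not kept on later days. Kcnj12 had 5.44 and 9.86 CPM at D7, lower than at D3 (log2 change -2.87, D7 minus D3, adjusted p = 0.000566). C1ql2 had 5.66 and 9.86 CPM at D7 (log2 change -3.15, adjusted p = 0.00156) and Kcna2 had 21.5 and 17.1 CPM at D7 (-2.20, adjusted p = 0.00759). Ass1 was back at 391 and 574 CPM at D7 (-3.33, adjusted p = 0.000152), Cdkn1c at 336 and 332 CPM (-2.47, adjusted p = 0.00146) and Socs3 at 67 and 108 CPM (-1.62, adjusted p = 0.000802). Mixl1 had 4.35 and 3.94 CPM at D7 (-2.18, adjusted p = 0.00694). In contrast Trh (146 and 81.5 CPM at D7, adjusted p = 0.529) and Nr0b1 (32.2 and 32.9 CPM, adjusted p = 0.19) were not called between D7 and D3, and Pou5f1 was higher at D7 than at D3, with 335 and 327 CPM (log2 change 2.13, adjusted p = 0.0144). Acta2, with 19.4 and 69 CPM at D7, was not called between those days (-0.02, adjusted p = 0.98). The comparisons of D3 with D0 and of D7 with D3 share the D3 libraries and are not independent.

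**Figure D4:**
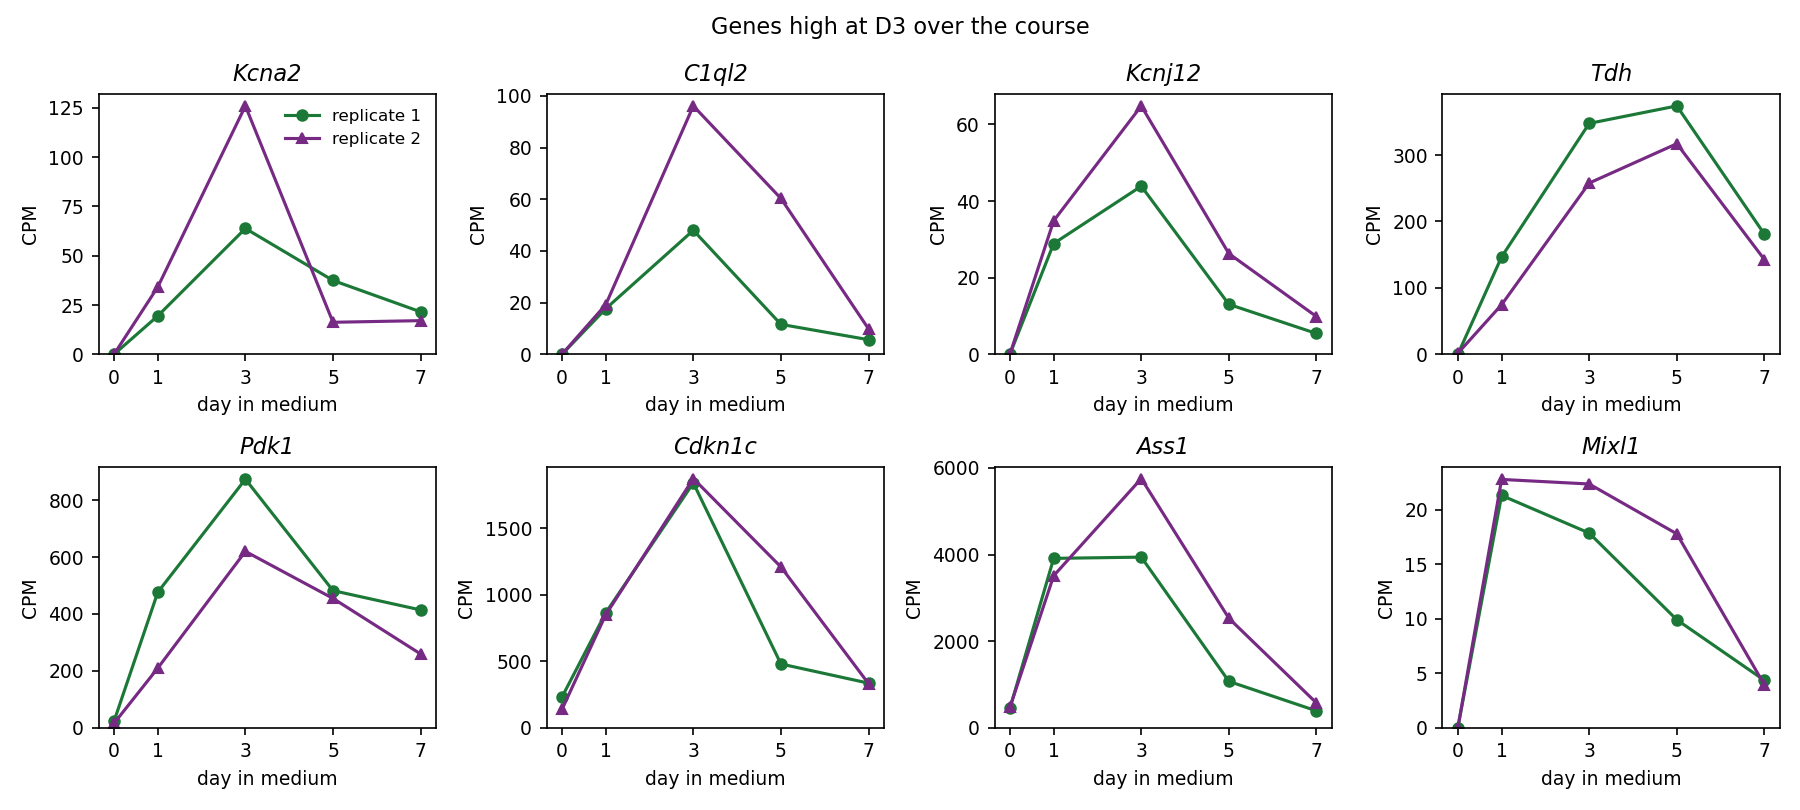
CPM (y axis, linear from 0) of 8 genes that were higher at D3 than at D0, at days 0, 1, 3, 5 and 7 in the medium (x axis), with a line for replicate 1 (green) and for replicate 2 (purple). Kcna2, C1ql2, Kcnj12, Pdk1 and Cdkn1c have their highest value at D3 in both replicates, Tdh at D5, and Mixl1 at D1.

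The largest falls outside the lists were less even. Medag, a gene of adipocyte differentiation, had 0.585 and 0 CPM at D3 and 39.1 and 41.2 CPM at D0, a ratio of 0.0105 (0.00126 to 0.0387). Ccn5, a relative of Ccn2, had 1.17 and 0 CPM at D3 and 57.7 and 44.9 CPM at D0 (log2 change -6.01, SE 0.68, adjusted p = 9.74e-05). Without D3 replicate 1 the log2 changes of Medag and Ccn5 were -9.74 and -9.70. Some features that share reads with near-identical copies also met the size rule and are uncertain. Rpl14-ps1, a ribosomal pseudogene, had 70.8 and 0 CPM at D3 and 0 counts at D0, and Gm48754 had 0 counts at D3 and 23.5 and 0 CPM at D0. Both calls were lost without D3 replicate 1 or D0 replicate 1.

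Calls among chromatin genes are to be read against all genes tested, of which 10.5% were higher and 11% lower. Shares called higher were 14.3% of DNA methylation enzymes, 12% of Polycomb subunits, 0% of NuRD subunits and 3.57% of histone lysine methyltransferases and demethylases. In the same order, shares called lower were 7.14%, 0%, 7.14% and 0%. Among DNA methylation enzymes 2 of 14 were higher, Dnmt3b and Dnmt3a, and 1 lower, Dnmt1 (median log2 change 0.21). Dnmt3a was not called without D0 replicate 1, and Dnmt1 not when any of the 4 libraries or the replicate number was left out. Dnmt3b, a de novo methyltransferase, had 53.5 and 37.3 CPM at D3 and 4.89 and 0.748 CPM at D0 (log2 change 3.91, SE 0.46, adjusted p = 7.99e-05; 5.45 without D0 replicate 1). Polycomb subunits had 3 of 25 higher (median 0.13). Jarid2, a cofactor of the repressive complex, had 129 and 108 CPM at D3 and 29.4 and 30.7 CPM at D0 (1.98, SE 0.27, adjusted p = 0.000256), and Kdm2b, which brings a Polycomb complex to CpG islands, had 155 and 196 CPM at D3 and 48.9 and 74.8 CPM at D0 (1.52, SE 0.24, adjusted p = 0.000714). In the NuRD repressor complex 1 of 14 was called, the remodeller Chd3, which was lower (58.8 and 75.3 CPM at D3, 144 and 198 CPM at D0, log2 change -1.35, SE 0.24, adjusted p = 0.00155). Its relative Chd4 had 700 and 644 CPM at D3 and 464 and 594 CPM at D0 (adjusted p = 0.333). Of the histone lysine methyltransferases and demethylases 1 of 28 was higher, Kdm6b, a call lost when any of the 4 libraries was left out. Among Hox genes, the positional regulators of the embryo, 11 of 30 tested were called lower and 1 higher (median -1.05). Hoxc8 had 4.68 and 3.73 CPM at D3 and 40.6 and 26.2 CPM at D0 (-2.96, SE 0.46, adjusted p = 0.000624). Hoxb13, the most posterior gene of its cluster, had 26.3 and 20.1 CPM at D3 and 0 counts at D0, at least 27.7-fold higher (adjusted p = 0.00192). The lower Hox count was 4 without D3 replicate 1 or D0 replicate 1, and 7 without D3 replicate 2, D0 replicate 2 or the replicate number. Of 20 germline genes 7 were tested, and of 12 genes of the 2-cell embryo 5 were. None of these was called by edgeR in the main fit or by DESeq2. With no low-count filter edgeR called 1 germline gene higher. In the main fit 1 germline gene and no gene of the 2-cell embryo had an unadjusted p under 0.05.

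The summed level of 10 macrophage markers was 24.3 and 10.4 CPM at D3 and 34.2 and 18.7 CPM at D0. Aif1 was at 0 in all 4 libraries. Only 2 of the 10 had enough counts to be tested, so the other 8 could not be called. Neither of the 2 was called by edgeR or DESeq2 or had an unadjusted p under 0.05. The 8 keratinocyte markers summed to 34.2 and 36.5 CPM at D3 and to 45 and 56.9 CPM at D0, with Trp63 and Krt6a at 0. Only 1 of the 8 was tested, and it was likewise not called. The 8 erythroid markers summed to 9.66 and 8.2 CPM at D3 and to 0.489 and 0.748 CPM at D0, with the globin genes Hbb-bs and Hbb-bt at 0. Only 1 of the 8 was tested, and it had an unadjusted p under 0.05 but was not called in the main fit. By DESeq2, with upper-quartile scaling or with no low-count filter, 1 marker was called higher. The same held in the 4 libraries alone, with or without the replicate number. With all 10 libraries and no replicate number none was called. The 10 endothelial markers summed to 87.8 and 79.7 CPM at D3 and to 27.9 and 33.7 CPM at D0. Of these 2 were called higher: Cldn5, a tight junction gene (30.7 and 11.9 CPM at D3, 0 counts at D0, at least 28.6-fold higher, adjusted p = 0.000774), and Esam, an adhesion gene (at least 11.1-fold higher, adjusted p = 0.00376, alternatives 1.31e-06 to 0.0644, the last without D0 replicate 1). The 10 skeletal muscle markers summed to 44.5 and 64.1 CPM at D3 and to 258.8 and 361.5 CPM at D0, with Myf5 and Myf6 at 0. Of the 3 tested, Acta1 and Des were called lower. Of the shorter lists, neural markers had 3 of 5 lower (Nes, Map2 and Tubb3, with 1 left without D3 replicate 1, D3 replicate 2 or D0 replicate 2), adipocyte markers 1 of 2 higher (Lpl, lost when any library was left out), and chondrocyte and osteoblast markers 2 of 8 higher (Alpl and Col9a1) and 2 lower (Acan and Col2a1), of which Alpl was called without each library. Alpl, a phosphatase that pluripotent cells also express, had 19 and 10.4 CPM at D3 and 0.489 and 1.5 CPM at D0, a ratio of 18.7 (6.17 to 92.6). The part of these other cell types in the results above was not tested.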

How the data were processed

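RNA of 10 libraries, replicates 1 and 2 of each of 5 days, was measured by sequencing. The submitters' processing notes name RSEM, Bowtie2, bcl2fastq and the mm10 build, without versions. The deposited gene tables hold expected counts, TPM and FPKM, per the file headers. The labels name more than 1 library kit for every sample, so which kit made which library is unknown, as is any use of strand in counting. Gene names were matched from a GENCODE M21 table (54723 of 54752 identifiers). The 29 unnamed ones, at most 0.00179% of a library, were kept under their identifiers, and 1 of them was among the genes tested. Expected counts were rounded and tested with edgeR 4.0.16 in R 4.3.3 (filterByExpr with a minimum count of 10, TMM scaling, all 10 libraries, day and replicate number as terms). TPM served for levels between genes only, and FPKM were not used. DESeq2 1.42.0 was an alternative. The replicate number is a term because libraries of the same number deviated together: the correlation of the replicate differences was 0.273 to 0.436 over the 10 pairs of days and 0.326 for D0 and D3. The number also went with library traits. The mean fragment length implied by the gene tables was 158.5 (D0) and 142.5 (D3) bases in replicate 1, and 204.1 and 198.8 in replicate 2. Replicate 1 also had more counts on every day. Whether the shared deviation is technical was not tested. The script was tested on simulated data.

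For a gene at 0 counts on a day, a fold is a bound against 3 counts over both libraries of that day. For 1 to 3 counts a ratio has an exact 95% interval. Both cover counting error only. Wherever a gene silent at D0 is named, it could be tested only because a later day had counts. Features that share reads with near-identical copies, and overlapping genes, are uncertain. Promoters were matched from RefSeq on GRCm38.p6 for 9650 of 12752 genes tested. The members and gene lists were chosen with earlier results of these data known. The genes named are the 4 delivered factors, the 15 largest log2 changes each way at a mean of at least 10 CPM, the 5 largest TPM changes each way, up to 6 called members of each list each way, and a panel of 25 genes; further genes without a call were chosen after their values were seen. The alternatives were other scalings, filters and models and leaving out each library. Some genes that meet this rule are not reported here.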

Additional observations from a re-analysis of the deposited data

How the results depend on the processing

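The comparison called 2742 genes, 1339 higher and 1403 lower. Without the replicate block 1549 genes were called, 792 higher and 757 lower. Leaving out 1 of the 4 libraries gave 1270 to 2006 called genes, 592 to 1013 higher and 662 to 993 lower, and 220 to 283 called list members against 366. The D3 and D0 libraries alone, with the replicate number, gave 3703, and a fit of them without it, chosen after seeing the data, gave 2029. The other scalings, filters and DESeq2 gave 2343 to 3103. Upper-quartile scaling moved the median log2 change of all genes to 0.10 and the share of calls that were higher to 54.8%, against 48.8%. Among called genes named here, Rpl14-ps1 alone changed sign, at -0.12 when D0 replicate 1 was left out, and it reached 10.52 when the other D0 library was. Among those without a call, leaving out a library gave log2 changes of -0.46 to 0.81 for Glis1, -0.43 to 0.33 for Sall4, -0.37 to 0.039 for Klf4, -0.40 to 0.16 for Cdh2, -0.34 to 0.010 for Gapdh and -0.12 to 0.54 for Cdkn2a. Sall4 was 0.026 with upper-quartile scaling and 0.032 in the 4 libraries alone without the block, against -0.05. The causes were not tested. Of 271 called genes that meet the naming rule, 142 stayed called without each library and 77 lost their call without the block.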
